A study of Mus musculus with 12 samples.

Results

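The genes described here are the 10 that carry out or control peptide presentation on MHC class I, namely the presented molecules H2-K1, H2-D1 and B2m, the transport and loading genes Tap1, Tap2 and Tapbp, the immunoproteasome subunits Psmb8, Psmb9 and Psmb10, and the transactivator Nlrc5. They were chosen by name. All 10 were among the 35275 genes counted, and all 10 were among the 12849 genes that passed the filter on low counts. RNA-seq was performed on bone marrow-derived macrophages (BMDMs) of wildtype mice, cultured for 6 days with M-CSF (20 ng/mL), IL-4 (20 ng/mL) and IL-10 (10 ng/mL), a mixture that drives marrow cells toward alternatively activated macrophages. The cultures received DMSO (the solvent control), olaparib (an inhibitor of poly(ADP-ribose) polymerase, PARP) or MNA (methyl-nicotinamide, an NAD derivative) throughout, with 4 libraries per group numbered 1 to 4. The marrow donors were 6 to 10 weeks old, and the cultures came from 4 donor mice. The strain of the donors and the doses of olaparib and MNA used for these libraries were not found in the sources used here. No source used here ties a library to a mouse, so the p-values measure the spread between these libraries, which may be technical.

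MHC class I molecules show peptides from inside the cell to CD8+ T cells. A heavy chain such as H2-K1 (H-2K) or H2-D1 (H-2D) pairs with β2-microglobulin (B2m) in the endoplasmic reticulum, where the TAP1-TAP2 transporter delivers peptides and tapasin (Tapbp) bridges the empty class I molecule to it. The peptides are cut by the proteasome. In many cells exposed to interferon, the catalytic subunits PSMB8, PSMB9 and PSMB10 replace PSMB5, PSMB6 and PSMB7 to form the immunoproteasome. NLRC5, a relative of the class II transactivator CIITA, is recruited to class I promoters through factors bound to a conserved run of short elements, and macrophages are among the cells that express it.

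In the GENCODE vM21 annotation of GRCm38, 7 of the 10 genes lie within 1351601 bases of chromosome 17, the H2 locus. Tapbp (chr17:33915899-33929292, plus strand) and H2-K1 (chr17:33996017-34000347, minus) come first, followed by the cluster of Psmb9 (chr17:34181987-34187764, minus), Tap1 (chr17:34187553-34197225, plus), Psmb8 (chr17:34197721-34201454, plus) and Tap2 (chr17:34203527-34216321, plus), and then H2-D1 (chr17:35262730-35267499, plus). B2m lies apart (chr2:122147686-122153083, plus), as do Nlrc5 (chr8:94434356-94527272, plus) and Psmb10 (chr8:105935735-105938444, minus). Tap1 and Psmb9 are divergent neighbours, and their RefSeq start sites are 226 bases apart on opposite strands.

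Promoter windows of RefSeq (GRCm38.p6, the 250 bases before each start site) were matched for 8 of the 10 genes. Tap2 and Nlrc5 had no entry. These windows were searched on both strands for 4 short motifs: an interferon-regulatory-factor type GAAANNGAAA, an NF-κB type GGGNNTTCC, the NF-Y box CCAAT and the cyclic-AMP-response element core TGACG. The strings are found in 2.98%, 4.98%, 33.8% and 17.8% of all 32851 windows, respectively. The windows of H2-K1, H2-D1 and B2m each held TGACG followed, after 20 further bases, by ATTGG, which is CCAAT read on the other strand. This spacing was taken from the match in H2-K1 and not chosen beforehand. It occurred, in either orientation, in 30 of the 32851 windows (0.0913%), most of them of genes that are not members. As the spacing was picked from these same genes, the share is no test of it. The 3 stretches are shown as a description, with the paired letters in capitals, 5′ to 3′ on the gene's own strand.
H2-K1 (chr17:34000359-34000388, minus): TGACGcgcagtcagctcttacccccATTGG
H2-D1 (chr17:35262993-35263022, plus): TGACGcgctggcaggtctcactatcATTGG
B2m (chr2:122147609-122147638, plus): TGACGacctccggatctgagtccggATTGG
The nonclassical class I gene H2-M3 held the same pair (chr17:37270188-37270217, plus). In Tap1, Tapbp, Psmb8, Psmb9 and Psmb10 the pair at this spacing was not found in the window searched.

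Further upstream, H2-K1 and H2-D1 shared an NF-κB type match in nearly the same surroundings. B2m held a match of the string GAAANNGAAA, which none of the other matched members held. Just past the bases shown for them, H2-K1 and H2-D1 both held tttcacttct. It resembles that string read on the other strand but does not match it, so the search cannot say that they lack such an element. The matches are shown with 10 bases on each side and the match in capitals.
H2-K1 (chr17:34000440-34000468, minus): gcccagggctGGGGATTCCccatctccac
H2-D1 (chr17:35262913-35262941, plus): gcccagggctGGGGATTCCccatctcctc
B2m (chr2:122147538-122147567, plus): ataagaacatGAAACTGAAAatgggaaagt
The stretch between the Tap1 and Psmb9 start sites held 1 CCAAT and 1 TGACG, and neither of the other motifs. A match is a description of the letters and not evidence of binding.

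Total counts per library were 21146291 to 31446849. One MNA library, MNA replicate 2, stood apart from the other MNA libraries. Its level lay inside the DMSO range for 8 of the 10 genes, against 67.4% of all tested genes, and inside the range of MNA replicates 1, 3 and 4 for 0 of the 10, against 22.7% of all tested genes. For H2-D1 and Psmb8 it lay just below the lowest DMSO library. It was kept in its labelled group, and the results on the 10 genes are given with and without it, while values of other genes are from the fit of all 12 libraries unless said otherwise. Leaving it out was decided with its values known, so these values describe the other 3 libraries and are no independent test. It also affected comparisons that do not involve MNA, because the libraries share 1 estimate of the spread. The common dispersion was 0.0333 with all 12 libraries and 0.0123 without it.

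The macrophage markers (9 of 9 detected, Adgre1, Csf1r, Cd68 and Lyz2 among them) summed to 4509 to 5776 CPM (read counts scaled to the size of the library) in DMSO, 8960 to 10744 in olaparib, 5749 to 7666 in MNA replicates 1, 3 and 4 and 4144 in MNA replicate 2. With olaparib, Adgre1, Mertk, Itgam and Lyz2 were called higher and Cd68 lower. With MNA, Csf1r and Cd14 were called higher and Mrc1 lower. Markers of IL-4 activation such as Chil3 and Arg1 summed to 32938 to 52930 CPM in DMSO, 19072 to 30505 in olaparib, 31791 in MNA replicate 2 and 1373 to 1921 in the other MNA libraries. With olaparib, 3 of these 6 genes had a positive log2 fold change and 0 were called, against 14.3% of all tested genes higher and 12.8% lower. Without MNA replicate 2, Mgl2 was called higher and Clec10a and Chil3 lower with olaparib. With MNA and all 12 libraries, Retnla alone of these 6 genes was called, and it was lower (12.3% of all tested genes lower). Without MNA replicate 2, 5 of the 6 were called lower with MNA, against 26.9% of all tested genes. They were Clec10a, Pdcd1lg2, Arg1, Chil3 and Retnla. The 10 T and NK cell markers, 5 of which passed the filter, summed to 2.86 to 5.63 CPM in DMSO, 11.97 to 23.8 in olaparib and 34.9 to 49.9 in MNA replicates 1, 3 and 4, mostly through Klrb1c with olaparib and Gzma with MNA. Klrb1c and Cd3e were called higher with olaparib, Gzma, Nkg7, Eomes and Cd3e were called higher with MNA and Klrb1c lower, and the highest level of Cd3e in any library was 0.905 CPM. The 6 B cell markers summed to 1.59 to 3.38, 3.71 to 8.997 and 14.3 to 23.1 CPM in the same order, and to 3.04 CPM in MNA replicate 2, which had 3.44 CPM of the T and NK cell markers. Dendritic cell markers summed to 17.98 to 27.1 CPM over all libraries and stromal markers to 3.90 CPM at most, while eosinophil, basophil and mast cell markers summed to 4.03 to 7.20 CPM in DMSO, 30.5 to 58.3 in olaparib, through Siglecf, and 4.98 to 10.6 in MNA. Among the dendritic cell markers, Ccr7 was called higher with both treatments and Xcr1 lower with olaparib. MNA replicate 4 had 51.3 CPM of neutrophil and 54.5 CPM of erythroid markers. The part of other cells in the results below was not tested, and in bulk RNA fewer cells of a type and less RNA per cell cannot be told apart.

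The members spanned a wide range of levels. On the scale of CPM per kb of annotated exon, the only scale on which genes are compared with each other here, the DMSO means ran from B2m at 1711 and H2-D1 at 1096 through H2-K1 at 204, Psmb10 at 94.6 and Tapbp at 65.3 to Psmb8 at 8.32, Tap2 at 7.16, Tap1 at 7.13, Psmb9 at 6.05 and Nlrc5 at 2.19. The heavy chains and their shared light chain were thus far above the transporter, and the transactivator was the lowest of the 10. Only the DMSO range of Tap1 overlapped those of other members on this scale, namely Psmb8, Tap2 and Psmb9.

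**Figure D1:**
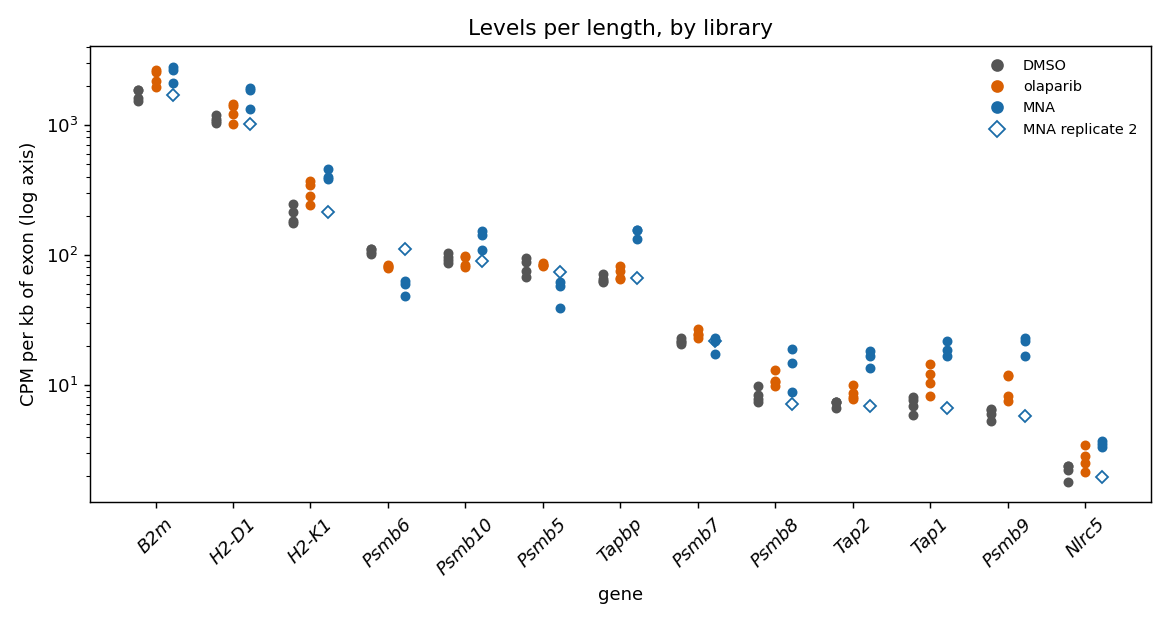
Level of each member and of the constitutive subunits Psmb5, Psmb6 and Psmb7 in CPM per kb of annotated exon (log axis), 1 point per library, ordered by the DMSO mean. Grey points are DMSO, orange olaparib, blue MNA, and the open diamond is MNA replicate 2, which sits among the DMSO points or, for H2-D1 and Psmb8, just below them and, for Psmb6, just above.

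The comparison of olaparib with DMSO asks what continuous PARP inhibition does to these genes during differentiation. The shifts were modest, with a median log2 fold change of 0.36 over the 10 genes (0.00 over all tested genes), 9 positive values and 1 gene called. The called gene was B2m, 1.36-fold up-regulated. By edgeR's quasi-likelihood test at an adjusted p under 0.05, 14.3% of all tested genes were called higher and 12.8% lower, so 1 of 10 is no more than the background. Without MNA replicate 2 the same difference was called for B2m, H2-K1, Tap1, Psmb9 and Tap2 (5 of 10, against 22.5% higher and 21.2% lower over all genes).

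Among the presented molecules, B2m was at 1394, 1323, 1587 and 1584 CPM in DMSO and at 1673, 1872, 2209 and 2271 CPM in olaparib replicates 1 to 4. The groups did not overlap. The log2 fold change was 0.45 ± 0.15 (SE), with an adjusted p of 0.0492 that ranged from 3.64e-05 to 0.132 over the alternatives tried. This call was lost in 9 of the 12 fits that left out 1 library, namely any DMSO library, olaparib replicate 2, 3 or 4, or MNA replicate 1 or 3, where edgeR's test called 0 of the 10 and 2 to 3 had an unadjusted p under 0.05 (9.57% to 14.6% of all tested genes were called higher in these fits).

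H2-K1 was at 513, 532, 723 and 631 CPM in DMSO and 712, 827, 1020 and 1094.5 CPM in olaparib. Only olaparib replicate 1 lay within the DMSO range. The log2 fold change of H2-K1 was 0.61 ± 0.21 and just missed the threshold (adjusted p = 0.0517, from 3.51e-05 to 0.140 over the alternatives). H2-D1, the more abundant heavy chain, overlapped between the groups, at 2828 ± 186 CPM (SD, n = 4) in DMSO and 3266 ± 508 CPM in olaparib, with a log2 fold change of 0.21 ± 0.18 and an adjusted p of 0.412.

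The transporter subunit Tap1 was at 32.3, 37.8, 44.4 and 41.8 CPM in DMSO and at 45.05, 56.3, 66.8 and 79.9 CPM in olaparib. Its partner Tap2 was at 25.1, 27.8, 27.7 and 27.8 CPM in DMSO and at 29.6, 30.7, 32.6 and 37.4 CPM in olaparib. In neither gene did the groups overlap. The log2 fold changes were 0.67 ± 0.29 for Tap1 (adjusted p = 0.103) and 0.27 ± 0.22 for Tap2 (adjusted p = 0.387), and both passed only without MNA replicate 2, at 0.66 ± 0.15 and 0.26 ± 0.09. Tapbp, at 237 ± 15.6 CPM in DMSO and 262 ± 28.9 CPM in olaparib, overlapped between the groups and was not called in either fit.

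Of the immunoproteasome subunits, 0 of 3 passed edgeR's test with all libraries, adjusted or at an unadjusted p under 0.05. Psmb9 was at 19.2, 21.9, 23.98 and 23.6 CPM in DMSO and at 27.3, 30.3, 42.8 and 43.3 CPM in olaparib, with no overlap and a log2 fold change of 0.70 ± 0.33 (adjusted p = 0.131) that was called without MNA replicate 2 (0.69 ± 0.15). Psmb8 was at 26.5, 33.0, 28.1 and 25.0 CPM in DMSO and at 33.1, 35.4, 36.4 and 44.1 CPM in olaparib, with a log2 fold change of 0.41 ± 0.25 (adjusted p = 0.234). Psmb10 was the exception in sign, with a log2 fold change of -0.08 ± 0.15 (adjusted p = 0.718) and means of 161 ± 12.2 CPM in DMSO and 153 ± 15.6 CPM in olaparib. Nlrc5 overlapped between the groups, at 15.3, 18.7, 20.4 and 20.05 CPM in DMSO and 18.2, 21.2, 24.01 and 29.3 CPM in olaparib (log2 fold change 0.32 ± 0.19, adjusted p = 0.236).

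The olaparib and DMSO libraries of the same number deviated together, so the fit with the replicate number as a block is given as well. It called H2-K1 (log2 fold change 0.60 ± 0.15, adjusted p = 0.0184) and B2m (0.44 ± 0.10, adjusted p = 0.0104), 2 genes in place of 1, against 15.4% of all tested genes called higher in that fit. Within numbers, 8 of the 10 genes were higher in olaparib than in the same-numbered DMSO library in 4 of 4 pairs, as were 29.9% of all tested genes. H2-D1 was higher in 3 of 4 and Psmb10 in 1 of 4. The largest single step was that of Tap1, 1.39-fold to 1.91-fold over the 4 pairs. Over all tested genes 20.7% had no overlap with olaparib above DMSO, against 5 of the 10 here, and a fit of the olaparib and DMSO libraries alone called 6 of the 10 higher (22.9% of all genes).

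**Figure D2:**
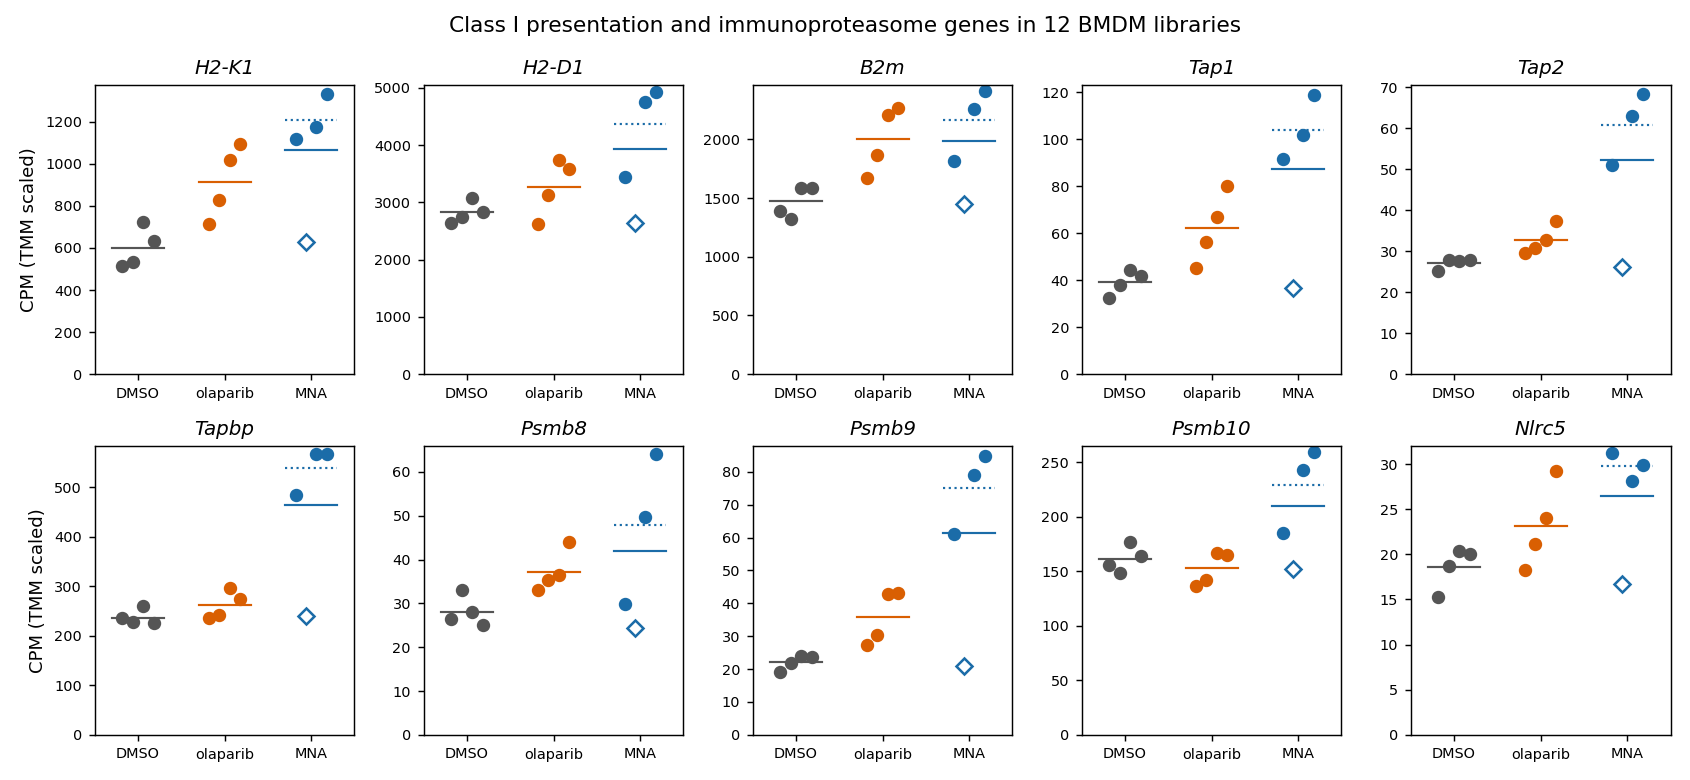
CPM of the 10 genes in each library, with 4 points per group, a solid line at the group mean and a dotted line at the MNA mean without replicate 2. MNA replicate 2 is the open diamond, which lies with the DMSO points, or just below them for H2-D1 and Psmb8. Psmb9, for example, runs from 19.2 to 23.98 in DMSO, 27.3 to 43.3 in olaparib and 61.1 to 84.7 in the other MNA libraries.

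The comparison of MNA with DMSO asks whether the NAD derivative changes macrophages as PARP inhibition does. It shares the DMSO libraries with the comparison above. All 10 log2 fold changes were positive, with a median of 0.70 (0.00 over all tested genes), and 5 of the 10 were called higher against 16.3% of all tested genes higher and 12.3% lower. The 5 were Psmb9, Tap1, Tapbp, Tap2 and H2-K1. Without MNA replicate 2 the median was 0.89 and 10 of 10 were called higher, against 27.2% higher and 26.9% lower. With MNA replicate 2 in the group all 10 genes overlapped DMSO (6.24% of all tested genes had no overlap with MNA above), and without it 9 of 10 did not overlap, the exception being Psmb8 (27.2% of all tested genes). Leaving out MNA replicate 3 or 4 instead left 0 of the 10 called by edgeR, with 7 and 5 under an unadjusted p of 0.05 (3.13% and 3.41% of all tested genes were called higher), and leaving out MNA replicate 1 or DMSO replicate 2 left 3 (5.31% and 7.11%). A fit of the MNA and DMSO libraries alone called 0.0% of all genes higher and so 0 of the 10, of which 9 had an unadjusted p under 0.05. DESeq2 called 9 of the 10, against 19.1% of all genes higher.

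The transport and loading genes rose together. Tapbp was at 483, 566 and 567 CPM in MNA replicates 1, 3 and 4 and at 241 CPM in replicate 2, where DMSO had 225 to 259 CPM. The log2 fold change of Tapbp was 0.97 ± 0.21 (adjusted p = 0.0149) with all libraries and 1.18 ± 0.09 without replicate 2, a 2.27-fold difference. Tap1 was at 91.7, 102 and 119 CPM against 36.5 CPM in replicate 2, with log2 fold changes of 1.16 ± 0.29 (adjusted p = 0.01996) and, without replicate 2, 1.41 ± 0.16. For Tap2 the levels were 50.9, 62.9 and 68.4 CPM against 26.2 CPM, and the log2 fold changes 0.94 ± 0.22 (adjusted p = 0.0172) and 1.16 ± 0.10. Each of these genes was higher in MNA replicates 1, 3 and 4 than in any DMSO culture. Their adjusted p reached 0.0642 for Tapbp, 0.0659 for Tap1 and 0.0647 for Tap2 at most over the alternatives.

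Psmb9 showed the largest change of the 10. It was at 61.1, 79.1 and 84.7 CPM in MNA replicates 1, 3 and 4 and at 21.1 CPM in replicate 2, against 22.2 ± 2.20 CPM (SD, n = 4) in DMSO. Its log2 fold change was 1.47 ± 0.33 (adjusted p = 0.0160), or 2.77-fold, with all libraries and 1.75 ± 0.16, or 3.37-fold, without replicate 2. Psmb8 was more scattered. Its level of 29.9 CPM in MNA replicate 1 lay within the DMSO range of 25.0 to 33.0 CPM, while replicates 3 and 4 had 49.7 and 64.0 CPM. It was not called with all libraries (log2 fold change 0.58 ± 0.25, adjusted p = 0.0912) and was called without replicate 2 (0.76 ± 0.19). Psmb10 was at 185, 243 and 259 CPM in MNA replicates 1, 3 and 4 and 152 CPM in replicate 2, with log2 fold changes of 0.38 ± 0.15 (adjusted p = 0.0669) and 0.50 ± 0.11 without replicate 2.

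H2-K1 was at 1119, 1176 and 1334 CPM in MNA replicates 1, 3 and 4, above the highest olaparib library, and at 627 CPM in replicate 2. Its log2 fold change was 0.83 ± 0.21 (adjusted p = 0.0208) and 1.01 ± 0.14, or 2.01-fold, without replicate 2. H2-D1 was at 3440, 4755 and 4936 CPM against 2632 CPM in replicate 2, and B2m at 1819, 2263 and 2411 CPM against 1452 CPM. Neither was called with all libraries (H2-D1 0.48 ± 0.18, adjusted p = 0.0640; B2m 0.43 ± 0.15, adjusted p = 0.0528). Without replicate 2 both were called, at 0.63 ± 0.13 for H2-D1 and 0.55 ± 0.12 for B2m. Nlrc5 was at 31.2, 28.1 and 29.9 CPM, close to each other and above DMSO, and at 16.7 CPM in replicate 2, with log2 fold changes of 0.51 ± 0.19 (adjusted p = 0.0633) and 0.67 ± 0.14.

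The direct comparison of olaparib with MNA shows where the treatments differed, without the shared DMSO libraries. With all 12 libraries, 3 of the 10 genes were lower in olaparib, against 10.9% of all tested genes lower and 10.9% higher. These were Tapbp (log2 fold change -0.82 ± 0.21, adjusted p = 0.0160), Tap2 (-0.68 ± 0.22, adjusted p = 0.0459) and Psmb10 (-0.46 ± 0.15, adjusted p = 0.0433). The count was 1 or 2 when any library other than MNA replicate 2 was left out (6.78% to 9.88% of all tested genes lower), and 0 in a fit of these 2 groups alone (6.73% of all genes lower), where edgeR gave 3 members an unadjusted p under 0.05. Without MNA replicate 2, 8 of the 10 were lower in olaparib (20.7% of all genes lower, 21.5% higher), and the levels of 6 of them did not overlap (22.8% of all genes, against 9.69% with the library in and 0 of the 10 members). Psmb9 and Tapbp then differed most, at -1.06 ± 0.15 and -1.04 ± 0.09. B2m did not differ detectably in either fit. Its difference was 0.01 ± 0.15 with all libraries and -0.11 ± 0.12 without MNA replicate 2, and it had about the same mean in both groups, 2006 ± 283 CPM in olaparib and 1986 ± 436 CPM in MNA. For Psmb8 the differences were -0.17 ± 0.25 and -0.36 ± 0.19, and neither passed.

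**Figure D3:**
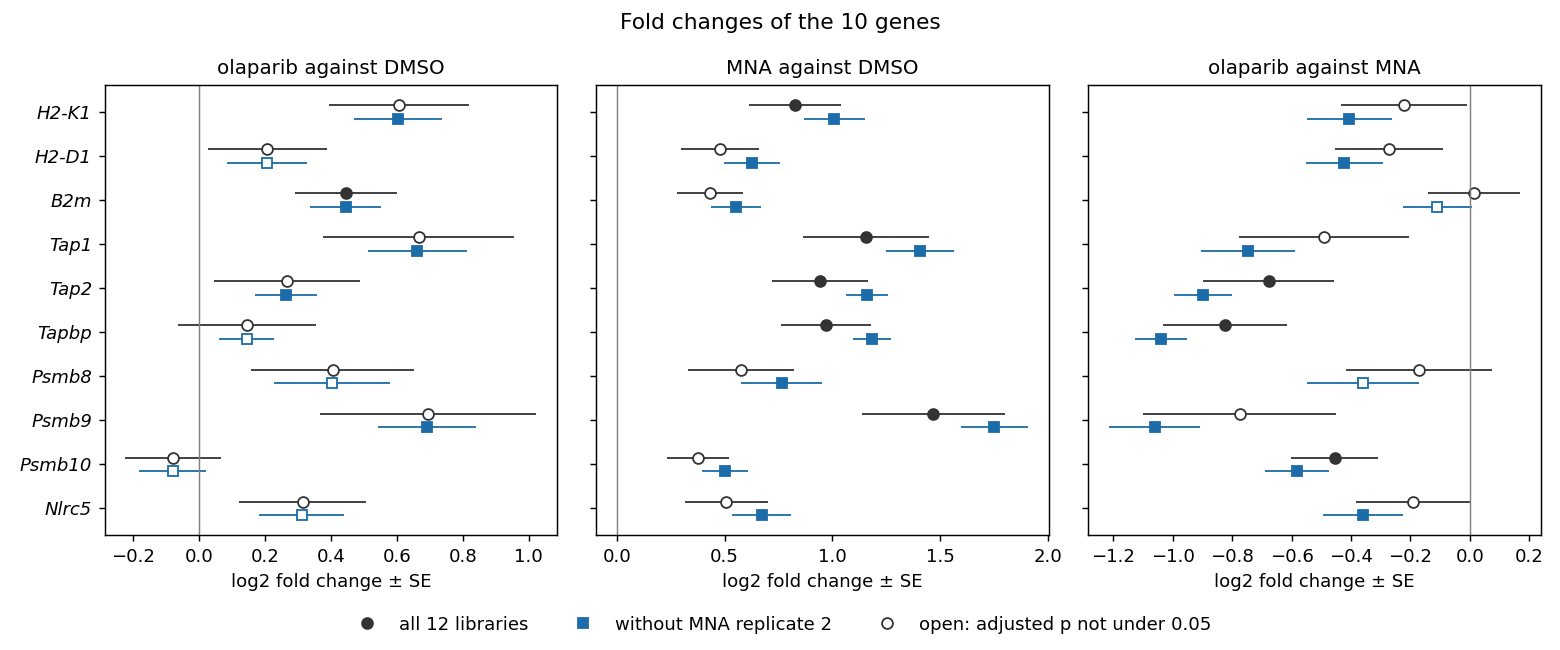
log2 fold change with its SE for the 10 genes in the 3 comparisons, with all 12 libraries (black circles) and without MNA replicate 2 (blue squares). Filled symbols have an adjusted p under 0.05. In the middle panel every symbol lies above 0 and Psmb9 has the largest value, 1.47 and 1.75, while Psmb10 is the only gene below 0 in the left panel.

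The immunoproteasome subunits take the places of constitutive ones, so each was also set against its counterpart within a library, as the log2 ratio of CPM per kb of exon. Exon length moves the level of such a ratio but not its difference between groups. Psmb9 to Psmb6 was at -4.27, -4.21, -4.08 and -4.01 in DMSO and at -3.43, -3.25, -2.84 and -2.79 in olaparib. The groups did not overlap, and the mean difference was 1.07, which is 2.09-fold. The exact two-sided permutation test gave p = 0.0286, the smallest that 4 against 4 allows, and an adjusted p of 0.129 over the 9 tests of 3 pairs in 3 comparisons. In MNA replicates 1, 3 and 4 the ratio was -1.55, -1.47 and -1.44, and in replicate 2 it was -4.28. The MNA mean was above DMSO by 1.96 with all 4 libraries (exact p = 0.143) and by 2.66, or 6.30-fold, without replicate 2 (exact p = 0.0286, the smallest possible for 3 against 4). Both terms of the ratio contributed, since Psmb6, the counterpart of Psmb9, had lower means in the treated libraries, at 200 ± 9.35 CPM in DMSO, 152 ± 3.92 CPM in olaparib and 107 ± 14.1 CPM in MNA replicates 1, 3 and 4, with 209 CPM in replicate 2. With all libraries the log2 fold change of Psmb6 was -0.39 ± 0.19 with olaparib (adjusted p = 0.143), which was called without MNA replicate 2 (-0.40 ± 0.07).

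The ratio of Psmb8 to Psmb5 averaged -3.28 ± 0.20 (SD, n = 4) in DMSO and -2.94 ± 0.21 in olaparib, a difference of 0.35 with overlapping groups (exact permutation p = 0.0571). In MNA it was -2.16, -2.06 and -1.60 in replicates 1, 3 and 4 and -3.36 in replicate 2, and the mean was above DMSO by 0.99 (exact p = 0.114). Psmb5 and Psmb6 were both called lower with MNA (log2 fold change of Psmb5 -0.48 ± 0.16, adjusted p = 0.0387, and of Psmb6 -0.59 ± 0.19, adjusted p = 0.0407), and without replicate 2 at -0.62 ± 0.13 and -0.90 ± 0.08. Psmb10 to Psmb7 went the other way with olaparib, from 2.12 ± 0.16 in DMSO to 1.86 ± 0.10, a difference of -0.26 (exact permutation p = 0.0857). With MNA it averaged 2.53 ± 0.34, and all 4 olaparib libraries lay below all 4 MNA libraries, MNA replicate 2 included (difference -0.67, exact p = 0.0286, adjusted p = 0.129). Psmb7 itself had log2 fold changes of 0.19 ± 0.08 for olaparib and -0.05 ± 0.08 for MNA against DMSO, neither called.

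**Figure D4:**
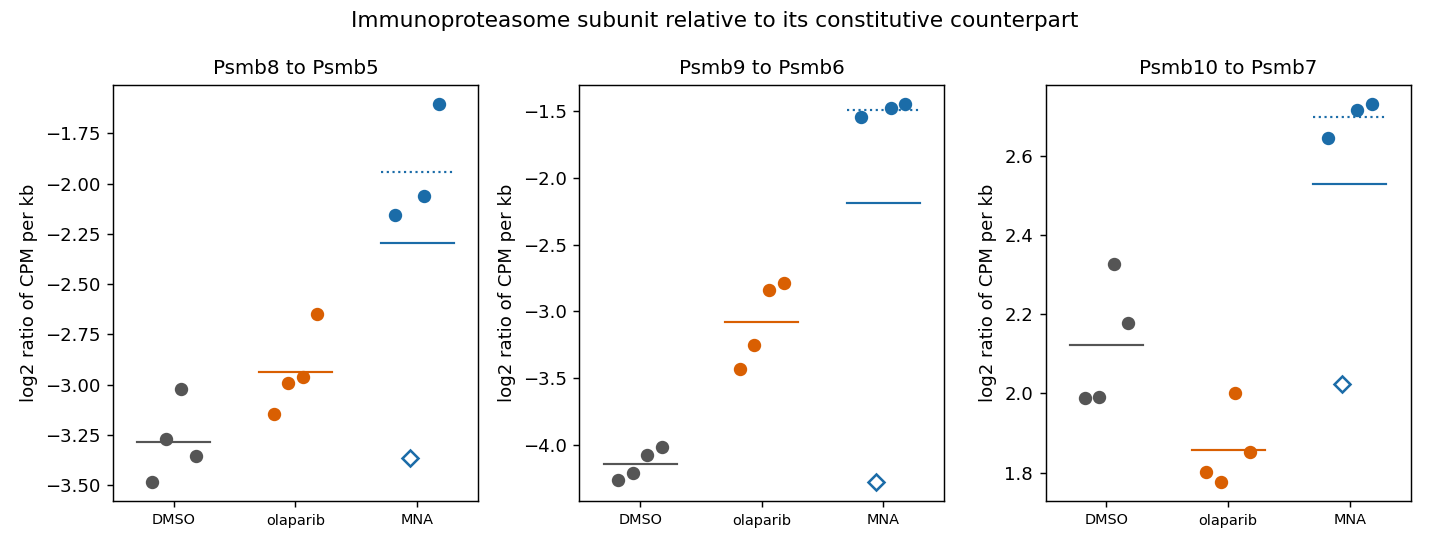
log2 ratio of each immunoproteasome subunit to its constitutive counterpart, in CPM per kb of exon, 1 point per library, with a solid line at the group mean and a dotted line at the MNA mean without replicate 2 (open diamond). For Psmb9 to Psmb6 the 4 DMSO libraries lie from -4.27 to -4.01, the olaparib libraries from -3.43 to -2.79 and MNA replicates 1, 3 and 4 from -1.55 to -1.44.

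Other genes of the pathway were read from lists chosen by name. Of all tested genes, 14.3% were called higher and 12.8% lower with olaparib, and 16.3% higher and 12.3% lower with MNA. Without MNA replicate 2 these shares were 22.5% and 21.2% with olaparib, and 27.2% and 26.9% with MNA. A list count near these shares is no more than the background. Of the 9 further genes of loading in the endoplasmic reticulum, 2 were called lower with olaparib (Erap1 and Ganab) and 2 higher with MNA (Erap1 and Tapbpl). Leaving out MNA replicate 2 added Hspa5 to those lower with olaparib. Erap1, the aminopeptidase that trims peptides to their final length, thus moved in opposite directions. It fell by 0.39 on the log2 scale with olaparib (SE 0.10, adjusted p = 0.0186) and rose by 0.34 ± 0.10 with MNA (adjusted p = 0.0325), from 120 ± 13.2 CPM in DMSO to 92.0 ± 7.47 CPM and 152 ± 19.1 CPM. Tapbpl, a tapasin-related peptide editor, rose by 0.64 ± 0.22 with MNA (adjusted p = 0.0456) and had a log2 fold change of -0.33 ± 0.22 with olaparib (adjusted p = 0.272). The chaperone Calr and the oxidoreductase Pdia3, which complete the loading complex, stayed near their DMSO levels. Their log2 fold changes were -0.09 ± 0.09 and 0.03 ± 0.09 with olaparib and 0.02 ± 0.09 and 0.09 ± 0.09 with MNA, none of them called.

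Of the 14 nonclassical and class I-like genes tested, 4 were called higher with olaparib. They were H2-M2 (log2 fold change 1.15 ± 0.24), Cd1d1 (0.86 ± 0.14), Mr1 (0.68 ± 0.11) and H2-T24 (0.63 ± 0.14). Cd1d1 and Mr1 present lipids and vitamin metabolites, respectively. Both were also higher in olaparib than in MNA (Cd1d1 1.04 ± 0.14, Mr1 0.47 ± 0.11). With MNA, H2-K2 (2.11 ± 0.50), annotated as a transcribed pseudogene that shares short sequence words with H2-D1, and H2-T22 (0.61 ± 0.21) were called higher and H2-Q5 lower (-0.97 ± 0.26). The list had, once MNA replicate 2 was left out, 7 called higher and 0 lower with olaparib, and 4 higher and 3 lower with MNA, and H2-T22 and H2-K2 were then called higher with both treatments. H2-T23, the ligand of CD94-NKG2A receptors, was at 417, 567 and 574 CPM in MNA replicates 1, 3 and 4, against 292 to 385 CPM in DMSO and 303 CPM in replicate 2 (log2 fold change 0.51 ± 0.19, adjusted p = 0.0595), and at 321 ± 53.0 CPM in olaparib. H2-M3, which shows formylated peptides and shares the promoter pair printed above, had log2 fold changes of 0.11 ± 0.13 and 0.28 ± 0.13 and was not called.

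H2-Q7 had its lowest levels in the MNA libraries. It was at 18.5, 36.8, 59.3 and 49.3 CPM in DMSO, at 15.5, 27.6, 39.4 and 59.8 CPM in olaparib, and at 8.92, 10.1 and 14.5 CPM in MNA replicates 1, 3 and 4. MNA replicate 2 had 33.5 CPM. The spread between libraries was wide, and the log2 fold change of -1.29 ± 0.50 was not called (adjusted p = 0.0656). In both DMSO and olaparib, replicate 1 was the lowest library of H2-Q7. Of its 150-base words, 5.90% are shared with other transcripts, mostly H2-Q10, so its counts are less certain. It was called lower with MNA when replicate 2 was left out (-1.88 ± 0.43).

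Among 10 proteasome activators and assembly factors, Pomp, the maturation factor that favours immunoproteasome assembly, was called higher with MNA (log2 fold change 0.85 ± 0.19, adjusted p = 0.0152). It was at 128, 169 and 182 CPM in replicates 1, 3 and 4 and 82.0 CPM in replicate 2, against 77.8 ± 4.26 CPM in DMSO. Psme1 and Psme2, the interferon-inducible PA28 caps, had log2 fold changes of 0.40 ± 0.14 (adjusted p = 0.0561) and 0.23 ± 0.11 (adjusted p = 0.119) with MNA and of 0.15 ± 0.14 and 0.04 ± 0.11 with olaparib. Psme3, a nuclear proteasome cap, was called lower with olaparib (-0.18 ± 0.05, adjusted p = 0.0208), and the assembly chaperone Psmg1 had -0.26 ± 0.11 (adjusted p = 0.0901). Leaving out MNA replicate 2 gave 4 of the 10 called higher with MNA and 2 with olaparib. Of the 6 cytosolic and endosomal peptidases tested, Lnpep and Npepps had log2 fold changes of -0.20 ± 0.09 and -0.16 ± 0.08 with olaparib, and Npepps and Lap3 of -0.20 ± 0.08 and -0.29 ± 0.12 with MNA. None of these was called with all libraries.

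Among 24 regulators of class I promoters and interferon signalling, 6 were called higher and 3 lower with olaparib, and 9 higher and 1 lower with MNA. Those lower with olaparib were Rela, Creb1 and Nfyc, and Nfyc was also the gene lower with MNA. The counts without MNA replicate 2 were 7 and 3 with olaparib and 13 and 3 with MNA. Irf1, a transcription factor of the interferon response that acts on class I and immunoproteasome genes, was at 199, 297 and 302 CPM in MNA replicates 1, 3 and 4 and 50.8 CPM in replicate 2, against 46.9 to 69.3 CPM in DMSO and 40.8 to 61.6 CPM in olaparib. The log2 fold change of Irf1 was 1.99 ± 0.41 with MNA (adjusted p = 0.0142; 2.31 ± 0.18 without replicate 2) and -0.10 ± 0.40 with olaparib (adjusted p = 0.870), and the difference of olaparib from MNA was -2.09 ± 0.41 (adjusted p = 0.0046). Irf2 rose with MNA (0.52 ± 0.13, adjusted p = 0.0201) and Irf8 did not pass with all libraries (0.43 ± 0.16, adjusted p = 0.0599). Stat2, a signal transducer of the type I interferon response, was called in both comparisons and rose by 0.82 ± 0.22 with olaparib (adjusted p = 0.0162) and 1.02 ± 0.22 with MNA (adjusted p = 0.0144). Rfx5, which anchors NLRC5 and CIITA at the X element of their target promoters, rose by 0.56 ± 0.19 with olaparib (adjusted p = 0.0477) and had 0.52 ± 0.19 with MNA (adjusted p = 0.0597). Irf9 (0.40 ± 0.10) and the receptor subunit Ifngr1 (0.60 ± 0.11) were called higher with olaparib, and Ifngr1 also with MNA (0.32 ± 0.11).

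Transcripts of interferons themselves were scarce. Of the 8 ligands listed, only Ifng passed the filter, at 1.15, 1.39 and 1.17 CPM in MNA replicates 1, 3 and 4, 0.107 CPM in replicate 2 and at most 0.134 CPM in DMSO and 0.418 CPM in olaparib (log2 fold change with MNA 4.03 ± 0.99, adjusted p = 0.0192, on few counts). The other 7, Ifnb1 among them, were at 0 in the 12 libraries, and a count of 0 allows up to 3 reads per library. Among 17 interferon-stimulated genes tested outside the class I pathway, 8 were called higher with olaparib and 9 with MNA, and the genes of smallest p were not the same. Mx1, Oas3 and Ifit3 were called higher in both. Leaving out MNA replicate 2 gave 15 and 14 of 18, with 1 called lower with MNA. Oasl2 and Usp18 were then called higher with both treatments, and Gbp2 and Gbp7 with MNA only. Oasl2 and Usp18 rose by 1.84 ± 0.23 and 1.43 ± 0.21 with olaparib, and were higher in olaparib than in MNA by 1.31 ± 0.22 and 0.99 ± 0.21. Gbp7 and Gbp2 rose by 2.92 ± 0.54 and 2.57 ± 0.49 with MNA, and were lower in olaparib than in MNA (-2.71 ± 0.53 and -2.43 ± 0.49).

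The list of class II genes holds Ciita, Cd74 and genes that neighbour the class I genes in the H2 locus. Of its 9 genes, 8 were called higher with MNA (median log2 fold change 2.12) and 2 with olaparib (median 1.04). These were 8 and 7 without MNA replicate 2. Ciita, the class II counterpart of Nlrc5, was at 88.0, 51.4 and 48.3 CPM in MNA replicates 1, 3 and 4, 5.05 CPM in replicate 2, 5.08 to 8.51 CPM in DMSO and 10.1 to 17.3 CPM in olaparib. Its log2 fold change was 2.83 ± 0.59 with MNA (adjusted p = 0.0142), or 3.21 ± 0.24 without replicate 2, and 0.95 ± 0.57 with olaparib (adjusted p = 0.232), where Nlrc5 had 0.51 ± 0.19 and 0.32 ± 0.19. With olaparib, Ciita was called higher without MNA replicate 2 and in a fit of olaparib and DMSO alone. H2-DMa rose by 2.74 ± 0.54 with MNA, and H2-DMb1 and H2-Ob were called in both comparisons in the fit of all 12 libraries. In a fit of olaparib and DMSO alone only 7 of the 9 genes passed the filter. Of these, 6 were called higher (22.9% of all genes), with H2-DMb1 among them and H2-Ob not. A fit of MNA and DMSO alone also tested 7 and called 0 (0.0% of all genes).

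**Figure D5:**
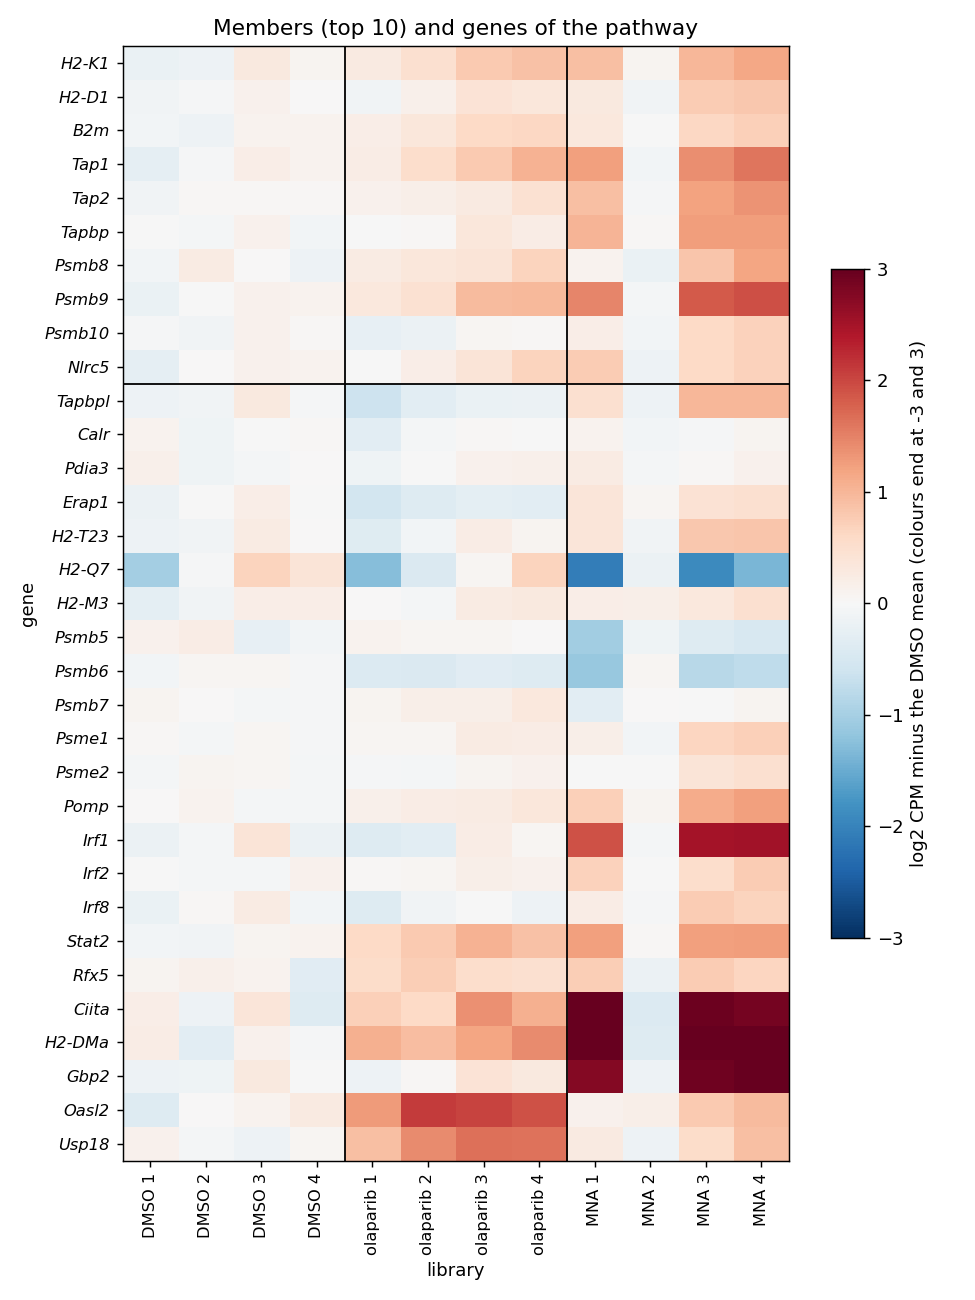
log2 CPM of each library minus the mean of the 4 DMSO libraries for the 10 members (above the line) and other genes of the pathway (below), with red for higher and blue for lower values. Irf1 and Gbp2 are dark red in MNA replicates 1, 3 and 4 and pale elsewhere, Oasl2 and Usp18 are most red in olaparib, Psmb6 is blue in olaparib and in MNA replicates 1, 3 and 4, and the column of MNA replicate 2 is pale for most genes.

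The members followed each other across the libraries. The Pearson correlation of each member's log2 CPM with the mean of the other 9 was 0.83 to 0.99 over 12 libraries, highest for Psmb9 (0.987) and Tap1 (0.983) and lowest for Psmb8 (0.831) and Psmb10 (0.830). These points share the 3 groups, so the values mainly describe the ordering of groups. The mean standardized level of the 10 genes was lowest in DMSO replicate 1 (-1.05) and MNA replicate 2 (-0.91), and ran from -0.60 to 0.54 in olaparib and from 0.71 to 1.73 in the other MNA libraries. Outside the lists, the genes whose pattern was most like this mean, with at least 100 mean counts, were Irgm2 (r = 0.984), AW112010 (0.982), Ifi47 (0.980), Dram1 (0.977) and 1810058I24Rik (0.977). Irgm2 and Ifi47 encode interferon-inducible GTPases. Irgm2 was at 6.18 to 7.43 CPM in DMSO, 7.20 to 14.4 CPM in olaparib, 20.6, 30.5 and 44.7 CPM in MNA replicates 1, 3 and 4 and 6.08 CPM in replicate 2.

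Some counts are less certain than the others. H2-K1 and H2-D1 share 22.8% and 26.7% of their 31-base words with other transcripts, mostly with each other, but at the read length of 150 bases only 0% and 1.35%. Both genes vary strongly between mouse strains, the reference is C57BL/6J, and the part of strain in their counts was not tested. Tap1 and Psmb9 overlap on opposite strands, and Tapbp overlaps Zbtb22 on the same strand. Outside the members, Psmb5 shares 71.7% of its 31-base words and 5.91% of its 150-base words with other transcripts. The ratio of Psmb8 to Psmb5 is therefore less certain too. Psme2 shares 33.5% and 12.1%. At 150 bases Cd1d1, Nfyc and H2-Q5 share 4.64%, 4.22% and 3.86%.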

How the data were processed

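RNA of the 12 BMDM libraries was sequenced as 150-base single-end reads from stranded mRNA libraries. The authors aligned the reads with STAR 2.5.2b to GRCm38.p5 (Ensembl release 99) and deposited raw read counts per Ensembl gene for each library, without normalization. The strand column of the counts is not given in the sources used here. Names, positions and exon lengths came from GENCODE vM21 (GRCm38), which held 34490 of the 35275 gene IDs, and promoter sequences from RefSeq.

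Counts were tested with edgeR 4.0.16 in R 4.3.3 (TMM, filterByExpr with minimum count 10 and minimum total 15, quasi-likelihood F test) in 1 fit of 12 libraries, with Benjamini-Hochberg adjustment over the 12849 tested genes and a threshold of 0.05. SEs were derived from the F values. CPM are scaled by TMM. Ratios of subunits were compared by exact two-sided permutation tests over libraries.

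Alternatives were RLE and upper-quartile scaling, DESeq2 1.42.0, no filter, the replicate block, only the groups compared, and each library left out. Neither labels nor methods tie a replicate number to a mouse. Same-numbered olaparib and DMSO libraries deviated together from their group means in every pair (r = 0.227, 0.172, 0.225 and 0.408), so the numbers were taken, from the data, to pair them. MNA and DMSO (r = 0.242, 0.114, -0.01 and 0.277) did not pass this check.

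The members and lists were chosen with earlier results of these data known. Genes named outside the 10 members are a list fixed by name, the 2 of smallest p in each treatment's comparison with DMSO from each pathway list, and the 5 genes most like the members' mean. H2-T22, H2-T24, H2-M2, Hspa5, Rela, Creb1, Nfyc, Mx1, Oas3, Ifit3 and Zbtb22 were named after their values or overlaps were seen. So were the cell type markers given with a call, and Siglecf. Of the listed genes, H2-T9, Nrdc and Gbp5 were not matched. A gene of the list fixed by name is not reported here.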

Additional observations from a re-analysis of the deposited data

Results flagged for a closer look

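In 39 groups of 4 libraries, 3 held a library farther from the other 3 than Dixon's 95% limit allows, a limit that chance passes in about 1 of 20 groups. Tap2 was at 25.1 CPM in DMSO replicate 1, below the 27.7 to 27.8 CPM of the other DMSO libraries. The Psmb9 to Psmb6 log2 ratio per kb was -4.28 in MNA replicate 2, and the Psmb10 to Psmb7 log2 ratio was 2.02 in the same library, both below the other MNA libraries.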

How the results depend on the processing

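The number of members called higher with olaparib against DMSO, 1 of 10 as reported, was 2 with upper-quartile scaling, with DESeq2 and with the replicate block, 0 without the filter (4 members had an unadjusted p under 0.05 in edgeR), 6 in a fit of these groups alone, 8 with the block and without MNA replicate 2, and 0 to 5 when each library was left out. Over all tested genes 15.4% were called higher with the block, 22.9% in these groups alone and 9.57% to 22.5% with 1 library left out. For MNA against DMSO, 5 as reported, it was 9 with DESeq2, 8 with the replicate block, 0 in a fit of these groups alone, 10 with the block and without MNA replicate 2, and 0 to 10 when each library was left out. The shares of all tested genes were 19.1% with DESeq2, 0.0% in these groups alone and 3.13% to 27.2% with 1 library left out. Members called lower in olaparib than in MNA, 3 as reported, were 0 in a fit of these groups alone, 8 with the block and without MNA replicate 2, and 1 to 8 when each library was left out. Of all tested genes, 6.73% were lower in these groups alone and 6.78% to 20.7% with 1 library left out. For the settings without a share here, the share over all tested genes is not given, so their counts cannot be set against it. MNA libraries were not paired by number in this check, and not every library correlated best with its own number, so the block says little for them.

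The pathway genes are the tested genes of the lists above, members and markers left out. Of these, 20 were called higher and 6 lower with olaparib against DMSO (14.3% and 12.8% of all tested genes). These counts were 37 and 12 in a fit of these groups alone, 41 and 17 with the block and without MNA replicate 2, and 15 to 38 and 1 to 10 when each library was left out, and without the filter 1 was lower. With MNA against DMSO, 32 were higher and 4 lower (16.3% and 12.3% of all tested genes). The counts were 0 and 0 in a fit of these groups alone, 50 and 13 with the block and without MNA replicate 2, 11 to 47 and 0 to 11 when each library was left out, and 7 were lower with the block alone. In olaparib against MNA, 20 were lower and 12 higher (10.9% and 10.9% of all tested genes). The counts were 9 lower in a fit of these groups alone, 39 lower and 22 higher with the block and without MNA replicate 2, and 9 to 37 lower and 8 to 18 higher when each library was left out. For the alternative fits, shares over all tested genes are given above for some settings only.

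For the ratios, pairing libraries by replicate number kept the difference of Psmb9 to Psmb6 at 1.07 with olaparib and of Psmb10 to Psmb7 at -0.67 between olaparib and MNA, but 4 pairs cannot give a p below 0.125. When each library was left out, the differences of MNA from DMSO ran over 0.76 to 1.34 for Psmb8 to Psmb5, 1.71 to 2.66 for Psmb9 to Psmb6 and 0.34 to 0.58 for Psmb10 to Psmb7, those of olaparib from MNA over -0.996 to -0.41, -1.59 to -0.64 and -0.84 to -0.61, and that of Psmb10 to Psmb7 with olaparib against DMSO over -0.31 to -0.20. The exact permutation p of 0.0286 was newly reached for 5 of these without MNA replicate 2 and for the last without olaparib replicate 3, and the difference of olaparib from MNA in Psmb10 to Psmb7 had an exact p of 0.0571 without any 1 of the olaparib libraries.

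Of the 570 values of single members under alternatives, 461 kept direction and side of the threshold, 49 passed newly, 54 no longer passed and 6 changed sign. Of these 6, 5 were B2m in olaparib against MNA, which ran from -0.11 to 0.12 when each library was left out and was -0.070 with the block and without MNA replicate 2, and 1 was Psmb8 in the same comparison, which ran from -0.36 to 0.10 and was above 0 only without MNA replicate 4. The causes were not tested. With 4 libraries a group, of which 1 in MNA stood apart, the calls moved with which libraries were in the fit.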
